A study of Mus musculus with 8 samples.

Results

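The forkhead transcription factors share a winged-helix DNA-binding domain, and 37 of them had a row of their own on the arrays read here. Members were chosen by symbol alone: a row belonged to the set when its RefSeq transcript carries a name of Fox, a letter from a to s and a number, with Foxm1 left out. This gave 41 rows of the 22523 that are not controls, and rows with identical values counted once, as did the 2 rows of Foxp2 and the 3 of Foxp4. The 37 genes are 37 of the 15653 genes with a name in the table. Of 43 genes that fit the rule in the RefSeq table, Foxe1, Foxi2, Foxi3, Foxo6, Foxr1 and Foxr2 were not analysed here.

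RNA of 8 independent cultures of mouse fetal fibroblasts lacking their own p53 genes was read on Affymetrix mouse 430 2.0 arrays, 1 array per culture. Ind-8 (3 arrays) carries a p53 cDNA on a zinc-inducible metallothionein promoter and divides asymmetrically when zinc is present. Con-3 (3 arrays) has no p53 and divides symmetrically. The line tI-3 (2 arrays) is a congenic derivative of the p53-inducible lines. In it a constant IMPDH II transgene keeps division in the symmetric mode although p53 is induced. All 8 cultures had 65 µM zinc chloride for 48 h and puromycin, and tI-3 alone had G418 as well. Each state is 1 cloned line, so line and state cannot be told apart, no culture without zinc was analysed here, and a p-value here measures the spread between preparations of 1 line.

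Ind-8 against Con-3 asks what accompanies p53 and asymmetric division, Ind-8 against tI-3 asks what accompanies the division mode with p53 induced in both, and tI-3 against Con-3 compares 2 symmetric lines that differ in p53. The 3 comparisons share arrays, so their results are not independent, and with 2 or 3 arrays per line the precision is limited by their number. Values are RMA log2 signals. Calls are from limma with Benjamini-Hochberg adjustment over 22523 probe sets at adjusted p under 0.05.

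Forkhead proteins bind a core close to TAAACA, and the family covers pioneer factors of the endoderm, regulators of mesenchyme and vessel walls, and the FoxO factors, which insulin and growth factor signalling through AKT keeps out of the nucleus. FoxO factors and p53 share target genes of cell cycle arrest, among them Cdkn1a. FoxO activity is set mostly by phosphorylation and location of the protein, which RNA arrays do not read.

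The labels were checked on genes with a known place in the design. Cdkn1a, a p53 target, was 9.70, 9.70 and 9.59 in Ind-8, 5.73, 5.81 and 6.03 in Con-3, and 7.55 and 7.33 in tI-3. The lines did not overlap, with Ind-8 highest and Con-3 lowest, and Ind-8 stood above Con-3 by 3.81 (adjusted p 1.91e-08). Trp53 was higher by 0.53 in Ind-8 than in Con-3 (adjusted p 0.00192) in all 3 Ind-8 arrays and by 0.39 in tI-3 than in Con-3 (adjusted p 0.0144) in both tI-3 arrays. The Con-3 mean of Trp53, 5.25, was under the background limit given below, so these differences may be too small. Impdh2 was lower in Ind-8 than in Con-3 by 0.34 (adjusted p 0.0108), in 3 of 3 Ind-8 arrays. Its 2 tI-3 arrays, 12.35 and 12.38, lay between Ind-8, at most 12.22, and Con-3, at least 12.51, and tI-3 was called against neither (adjusted p 0.163 and 0.182). Whether the Impdh2 probes read the transgene is not known. The metallothionein genes Mt1 and Mt2 were read as well. Mt1 was called in no comparison, and Mt2 was lower in tI-3 than in Con-3 by 0.39 (adjusted p 0.0248).

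Of the 37 forkheads, 21 stood above background and 16 near it, where near background means that the highest of the 3 line means was at or under log2 5.31, the 95th percentile of the same value over 36 olfactory receptor rows. With the mean of the 8 arrays held to its 25th percentile over all probe sets 10 forkheads were near background, and with the highest line mean held to the olfactory median 5 were. Between Ind-8 and Con-3, 6 of 37 forkheads (16.2%) were called, 2 higher and 4 lower in Ind-8, beside 21.9% of all probe sets, 10.9% higher and 11% lower. Between Ind-8 and tI-3, 12 of 37 (32.4%) were called, 4 higher and 8 lower in Ind-8, beside 31.1% of all probe sets, 15.6% higher and 15.5% lower. Between tI-3 and Con-3, 8 of 37 (21.6%) were called, 6 higher and 2 lower in tI-3, beside 25.4% of all probe sets, 10.2% higher and 15.1% lower. These shares lie near those of all probe sets, so the number of called forkheads is not a result about forkheads.

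Rank product, the test used in the study, called 1 forkhead higher in Ind-8 than in Con-3, 1 higher in Ind-8 than in tI-3 and 0 between tI-3 and Con-3, while it called 3.58%, 2.02% and 2.3% of all probe sets. At an unadjusted p under 0.05 rank product put 4, 9 and 4 forkheads past the limit. In both comparisons where rank product called a forkhead, that forkhead was Foxs1. A log2 difference of at least 1 was passed by 1 forkhead in each comparison, Foxs1 in both with Ind-8 and Foxq1 between tI-3 and Con-3, beside 2.1%, 3.05% and 3.3% of all probe sets.

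The counts rest on few arrays. The 6 calls between Ind-8 and Con-3 became 3 without Con-3 replicate 2, 3 without Con-3 replicate 3 and 3 without Ind-8 replicate 2, each time 2 higher and 1 lower in Ind-8. The 12 between Ind-8 and tI-3 became 7 without Ind-8 replicate 2, 7 without tI-3 replicate 1 and 2 without tI-3 replicate 2. The 8 between tI-3 and Con-3 became 5 without Con-3 replicate 2, 4 without tI-3 replicate 1 (4 higher and 0 lower in tI-3 by limma) and 5 without tI-3 replicate 2 (2 higher and 3 lower). A block was fitted for the level of the hybridization controls, which stand high in Con-3 replicate 3 and both tI-3 arrays. It gave 3, 1 and 5 calls, of which 3, 1 and 4 were among those above. Calls over all 22523 probe sets fell as well. With the block they went from 4942, 7009 and 5715 to 3650, 708 and 3066. Without Ind-8 replicate 2 they were 3493 between Ind-8 and Con-3 and 5166 between Ind-8 and tI-3. Without Con-3 replicate 2 they were 3806 between Ind-8 and Con-3 and 4222 between tI-3 and Con-3. With the block 2 forkheads were higher and 1 lower in Ind-8 than in Con-3, and 2 were higher and 3 lower in tI-3 than in Con-3, so the balance of directions turned in both. Con-3 replicate 3 also stood apart on the 3′ probe set of 18S ribosomal RNA, at 11.39 beside 6.59 to 7.68 on the other 7 arrays, and the part of this in the calls was not tested. Of the 26 calls in the 3 comparisons, 6 held with each array left out in turn: Foxs1 and Foxd1 in both comparisons with Ind-8, Foxo1 between Ind-8 and Con-3, and Foxq1 between tI-3 and Con-3. No call changed its direction under any alternative.

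**Figure D1:**
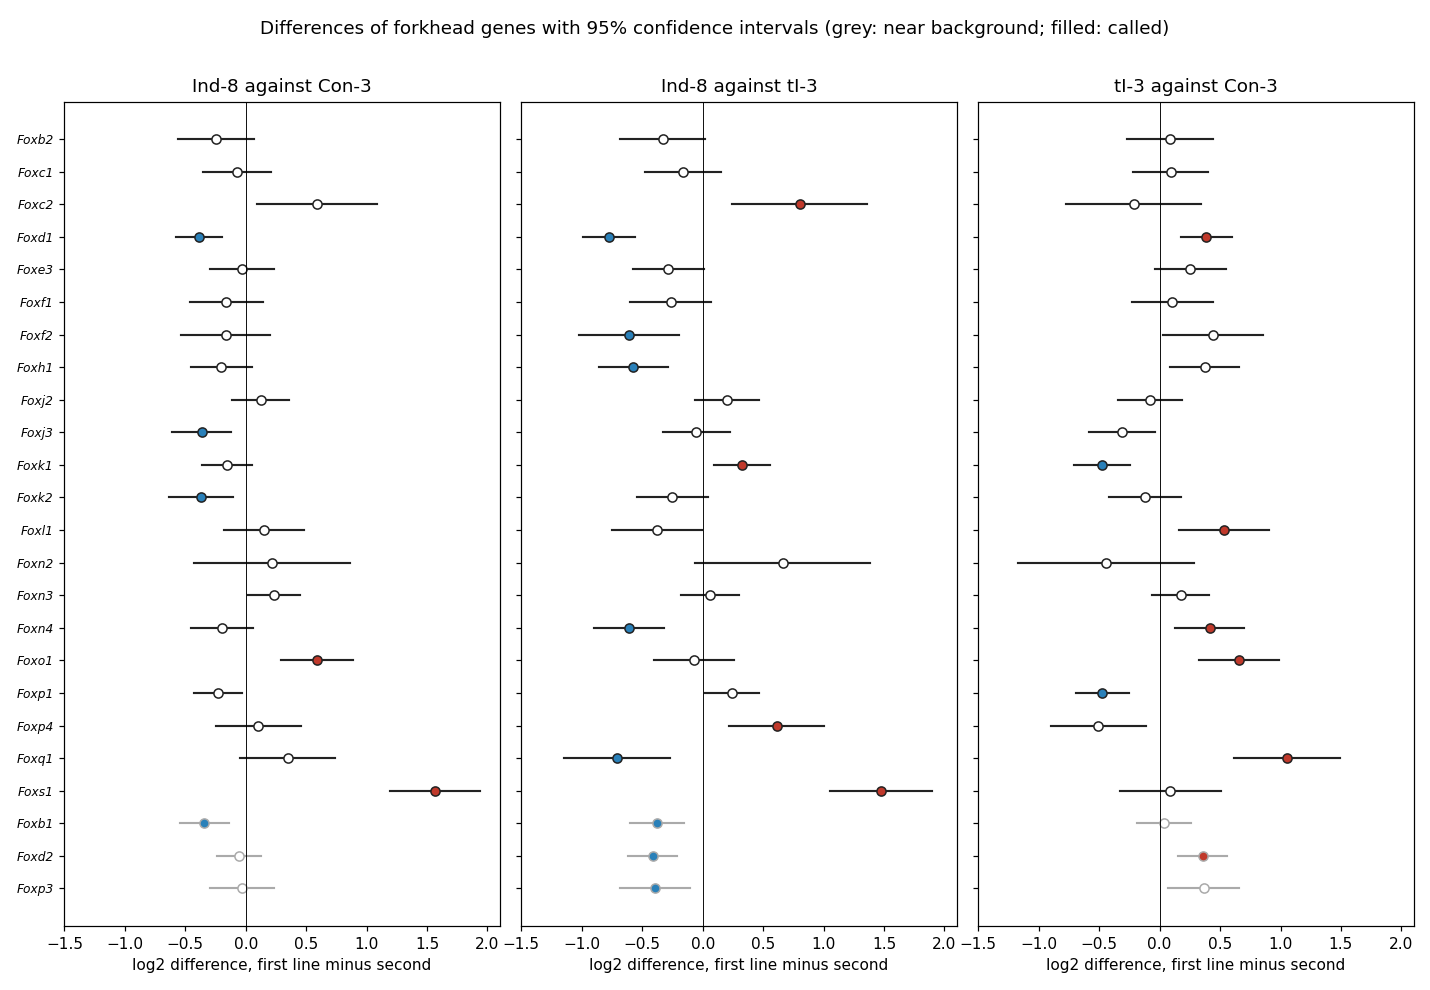
Difference in log2 signal between lines for the forkheads above background and the called ones near it (vertical axis) in the 3 comparisons, with bars for 95% confidence intervals, filled points for those called by limma and grey for those near background. Foxs1 lies far to the right of the other forkheads in both comparisons with Ind-8.

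Foxs1, the only member of the FoxS subfamily and a gene of pericytes and neural crest derivatives, had the largest differences of the 37 forkheads in both comparisons with Ind-8. Its signal was 7.40, 7.00 and 6.78 in Ind-8, 5.70, 5.36 and 5.43 in Con-3, and 5.79 and 5.38 in tI-3. Every Ind-8 array lay above every array of the other lines, which overlapped each other. The line means were 7.06 ± 0.318 (SD, n = 3), 5.49 ± 0.180 (n = 3) and 5.58 ± 0.289 (n = 2). Foxs1 was 1.56 higher in Ind-8 than in Con-3 (2.96-fold; 95% confidence interval 1.19 to 1.94; adjusted p 0.000196).

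Foxs1 was also higher in Ind-8 than in tI-3, by 1.48 (2.78-fold; 95% confidence interval 1.06 to 1.90; adjusted p 0.000522), in 3 of 3 Ind-8 arrays. In tI-3 against Con-3 it differed by 0.09 (adjusted p 0.766), a value that was -0.002 after the arrays were quantile-normalized again and -0.116 without tI-3 replicate 1. With the hybridization-control block the difference between Ind-8 and tI-3 was 1.38 and no longer called (adjusted p 0.0574), the high end of a range of 8.94e-05 to 0.0574 over the other fits. The study picked Foxs1 from these same arrays, so its place here is no independent evidence. The signal in Con-3 and tI-3 was close to the background limit of 5.31, and the study scored Foxs1 as absent in Con-3. Both differences with Ind-8 may therefore be too small.

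**Figure D2:**
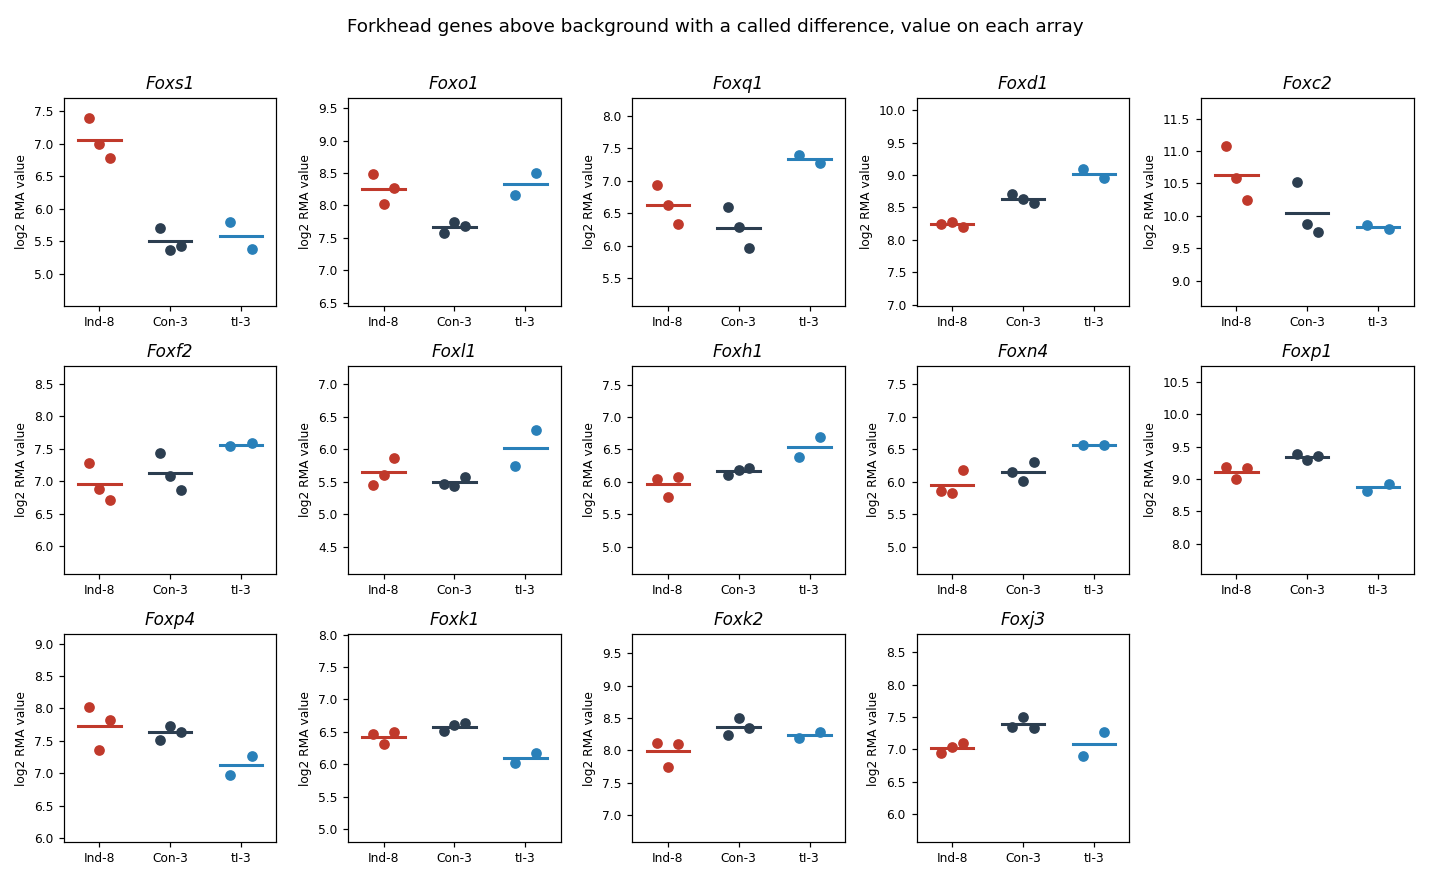
Log2 signal of the called forkheads above background on each of the 8 arrays, by line, with points for arrays and bars for line means. Foxs1 is high in Ind-8 alone, Foxo1 is low in Con-3 alone, and Foxd1 differs between all 3 lines.

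Of the FoxO factors, Foxo1 is the one that stood above background, and it was low in Con-3. It was 8.49, 8.02 and 8.26 in Ind-8, 7.57, 7.75 and 7.68 in Con-3, and 8.15 and 8.50 in tI-3. All 5 arrays of the lines with p53 lay above all 3 Con-3 arrays, and Ind-8 and tI-3 overlapped. Foxo1 was higher by 0.59 in Ind-8 than in Con-3 (1.5-fold; 95% confidence interval 0.29 to 0.89; adjusted p 0.0105) and by 0.66 in tI-3 than in Con-3 (1.58-fold; adjusted p 0.00935). The call between tI-3 and Con-3 was lost without tI-3 replicate 2 (difference 0.49, adjusted p 0.109) and under the block for hybridization controls (difference 0.64, adjusted p 0.0787, the high end of 0.00528 to 0.0787 over the other fits). Ind-8 and tI-3 differed by -0.07 (adjusted p 0.744). Foxo3 and Foxo4, which share FoxO targets with Foxo1, were near background, at 4.50 to 5.05 and 4.99 to 5.41 over the arrays, and were called in none of the 3 comparisons.

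Promoters were read as the 250 bases before the annotated start in GRCm38.p6, where 24 of the 37 forkheads have 29 promoters. The full forkhead core GTAAACA, on either strand, was in 1 of these 29, that of Foxa1, and in 3.17% of 32851 promoters of all genes. Its 6-letter part TAAACA was in 5 of 29 and in 12% of all, and the CCAAT box was in 13 of 29 and in 33.8% of all. The p53 half-site was in the promoters of Foxf2 and Foxn1 and in 7.13% of all. TAAACA and CCAAT were looked for after the sequences had been seen, and a match describes a sequence and is neither a shown site nor a cause. The Foxo1 promoter, chr3:52268087-52268336 on the plus strand, holds 3 CCAAT boxes on the minus strand, which read ATTGG and are in capitals.

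Foxo1 promoter: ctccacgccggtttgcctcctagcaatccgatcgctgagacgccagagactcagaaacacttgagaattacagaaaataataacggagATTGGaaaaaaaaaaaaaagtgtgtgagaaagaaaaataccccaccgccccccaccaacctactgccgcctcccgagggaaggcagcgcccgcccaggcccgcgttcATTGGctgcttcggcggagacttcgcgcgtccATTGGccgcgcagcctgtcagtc

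Genes known to be FoxO targets were read beside Foxo1, 35 of a list of 36. Between Ind-8 and Con-3, 16 were higher and 1 lower in Ind-8 and 18 were not called, with a median difference of 0.165 beside -0.058 for all probe sets. The list does not separate targets that FoxO factors activate from those they repress, so its balance is not a direction of FoxO activity. Ccnd2, which they repress, was among the 16 (higher by 0.68, adjusted p 0.0226). Between Ind-8 and tI-3, 13 were higher and 5 lower in Ind-8 (median 0.168 beside -0.061), and between tI-3 and Con-3, 6 were higher and 5 lower in tI-3 (median 0.119 beside 0.036). The called shares in these comparisons were 48.6%, 51.4% and 31.4%, beside 21.9%, 31.1% and 25.4% of all probe sets. The 17 calls between Ind-8 and Con-3 became 9 without Con-3 replicate 2, 9 without Con-3 replicate 3, 8 without Ind-8 replicate 2 and 9 with the hybridization-control block. The 18 between Ind-8 and tI-3 became 11 without Ind-8 replicate 1, 9 without Ind-8 replicate 2, 7 without tI-3 replicate 2, 11 after quantile normalization and 4 with the block. Calls over all 22523 probe sets fell as well. Between Ind-8 and Con-3, 4942 became 3806 without Con-3 replicate 2, 3493 without Ind-8 replicate 2 and 3650 with the block. Between Ind-8 and tI-3, 7009 became 5120 and 5166 without Ind-8 replicates 1 and 2, 5739 after quantile normalization and 708 with the block. Several of the FoxO targets, among them Cdkn1a, Ccng2, Sesn1, Gadd45a and Bbc3, are targets of p53 as well. What part of the pattern belongs to FoxO factors was not tested.

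Some FoxO targets went with Foxo1, high in both lines with p53, and others did not. Selenop, an antioxidant carrier of selenium, was higher than in Con-3 by 2.60 in Ind-8 (adjusted p 0.000722) and by 3.08 in tI-3 (adjusted p 0.000426), in all 5 arrays. Ccng2, a cyclin of arrested cells, was higher than in Con-3 by 1.26 in Ind-8 (adjusted p 0.00123) and by 1.36 in tI-3 (adjusted p 0.00122). Sesn1, an antioxidant gene, was lower in tI-3 than in either Con-3 (by 0.91; adjusted p 0.00033) or Ind-8 (by 0.85; adjusted p 0.000594). Ppargc1a, a coactivator of mitochondrial genes, was 6.09 and 5.82 in tI-3 and between 3.60 and 3.89 in the other 6 arrays, so it stood above background in tI-3 alone. The mitochondrial peroxidase Prdx3 was the 1 target lower in Ind-8 than in Con-3, by 0.36 (adjusted p 0.0286). It was lowest in tI-3, by 0.70 below Con-3 (adjusted p 0.00155) and by 0.34 below Ind-8 (adjusted p 0.0444).

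Other FoxO targets separated tI-3 from Ind-8. S1pr1, a receptor of the vessel wall and of lymphocytes, was lower in tI-3, by 1.63 than in Ind-8 (adjusted p 0.000116) and by 1.12 than in Con-3 (adjusted p 0.000754). Its tI-3 mean of 5.19 was under the background limit, so these differences may be too small. The cyclin gene Ccnd2, which FoxO factors repress, was higher in Ind-8 than in tI-3 by 0.93 (adjusted p 0.00771). Irs2, an insulin receptor substrate, was lower in Ind-8 than in tI-3 by 0.43 (adjusted p 0.0489).

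**Figure D3:**
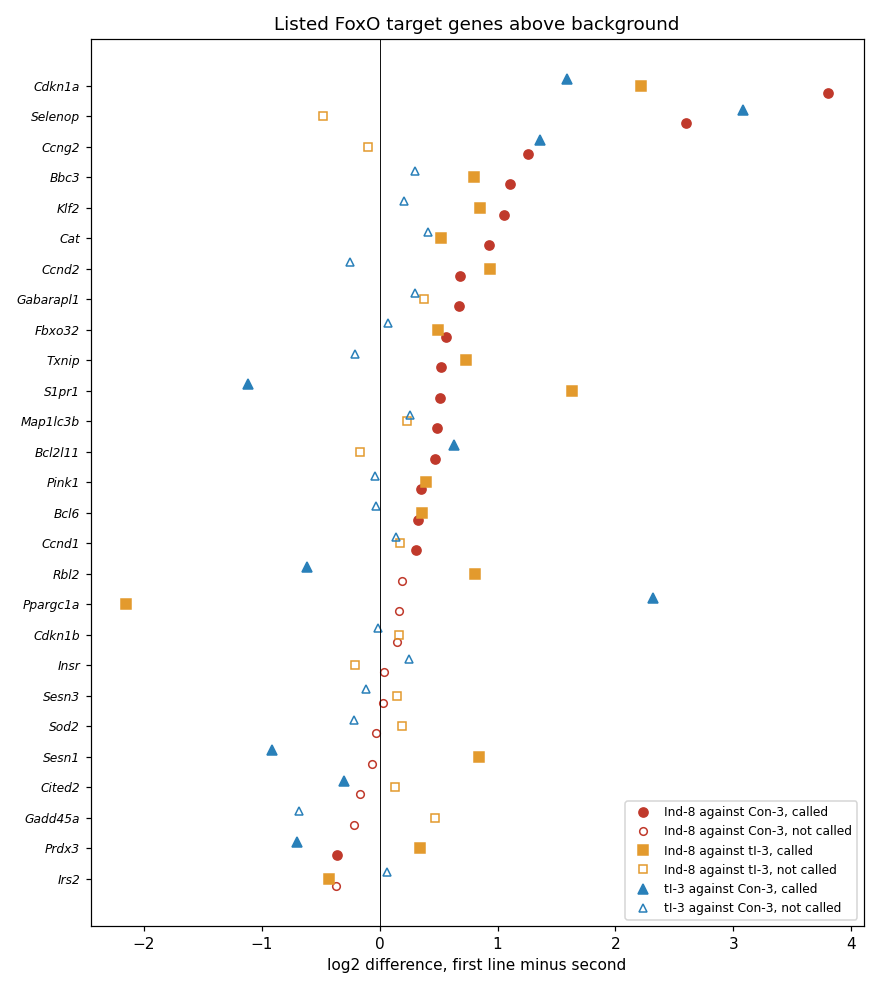
Difference in log2 signal for the FoxO target genes above background (vertical axis) in the 3 comparisons, with filled points for called genes. Most called targets lie to the right of 0 in both comparisons with Ind-8, and Ppargc1a lies far to the left in Ind-8 against tI-3.

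Genes that control FoxO factors were read as another list. Of 27 regulators and cofactors found of a list of 30, 3 were higher and 3 lower in Ind-8 than in Con-3, 4 and 2 in Ind-8 than in tI-3, and 5 and 5 in tI-3 than in Con-3. The called shares were 22.2%, 22.2% and 37%, beside 21.9%, 31.1% and 25.4% of all probe sets. All 27 genes stood above background. With only the probe sets above background fitted, 10 of 27 were called between tI-3 and Con-3, beside 5651 of 13920 probe sets. The number called is therefore not a result about these genes in any of the 3 comparisons. The 6 calls between Ind-8 and Con-3 became 3 without Ind-8 replicate 2, and the 6 between Ind-8 and tI-3 became 10 after quantile normalization, then 3 higher and 7 lower, and 1 with the hybridization-control block. Skp2, which marks FoxO1 for degradation, was lower than in Con-3 by 0.79 in Ind-8 (adjusted p 0.000722) and by 0.69 in tI-3 (adjusted p 0.0021). Mdm2, a ligase for FoxO factors and a p53 target, was higher by 2.00 in Ind-8 than in Con-3 (adjusted p 1.09e-05). The kinase gene Sgk3 and the insulin receptor substrate gene Irs1 were also higher in Ind-8 than in Con-3, by 0.53 (adjusted p 0.00478) and 0.52 (adjusted p 0.0136). The Con-3 mean of Sgk3, 4.84, was under the background limit, so its difference may be too small. Pik3cb and Mapk8, kinase genes, were lower there by 0.42 (adjusted p 0.0194) and 0.28 (adjusted p 0.033).

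Some FoxO regulators differed between tI-3 and another line. The deacetylase gene Sirt1 was lower in tI-3, by 1.06 than in Ind-8 (adjusted p 0.0016) and by 1.13 than in Con-3 (adjusted p 0.000956). Sgk1, whose kinase phosphorylates FoxO factors, was lower in tI-3 as well, by 0.60 than in Ind-8 (adjusted p 0.0121) and by 0.81 than in Con-3 (adjusted p 0.00256). The kinase subunit gene Pik3r1 was higher in tI-3, by 0.55 than in Ind-8 (adjusted p 0.0041) and by 0.65 than in Con-3 (adjusted p 0.00143). Mapk8 was lower in Ind-8 than in tI-3 by 0.46 (adjusted p 0.0057) and was not called between tI-3 and Con-3. Irs1 was higher in tI-3 than in Con-3 by 0.85 (adjusted p 0.00161) and was not called between Ind-8 and tI-3.

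Foxd1, a factor of stromal progenitors, was the 1 forkhead called in all 3 comparisons. It was 8.25, 8.28 and 8.21 in Ind-8, 8.70, 8.63 and 8.56 in Con-3, and 9.09 and 8.95 in tI-3. The 3 lines did not overlap, with Ind-8 lowest, Con-3 between and tI-3 highest. Foxd1 was lower in Ind-8 than in Con-3 by 0.39 (1.31-fold; 95% confidence interval -0.58 to -0.20; adjusted p 0.00966) and lower in Ind-8 than in tI-3 by 0.77 (1.71-fold; adjusted p 0.00043). It was higher in tI-3 than in Con-3 by 0.39 (adjusted p 0.0144), a call that was lost without tI-3 replicate 1 (adjusted p 0.102). Rank product called Foxd1 in none of the 3 comparisons. Its promoter, chr13:98353995-98354244 on the plus strand of GRCm38.p6, holds 1 CCAAT box, in capitals.

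Foxd1 promoter: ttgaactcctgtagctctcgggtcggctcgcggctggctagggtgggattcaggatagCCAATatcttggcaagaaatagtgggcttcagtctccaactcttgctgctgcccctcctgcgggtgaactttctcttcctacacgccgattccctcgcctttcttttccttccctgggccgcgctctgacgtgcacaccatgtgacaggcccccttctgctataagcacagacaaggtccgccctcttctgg

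The other FoxD, FoxE and FoxB genes, factors of neural crest, lens and brain, were dim. Foxd2 was near background and was lower in Ind-8 than in tI-3 by 0.42 (adjusted p 0.00771), below both tI-3 arrays in 3 of 3 arrays, and higher in tI-3 than in Con-3 by 0.36 (adjusted p 0.0161). The call with Ind-8 was lost without tI-3 replicate 2 (adjusted p 0.0557), and the call with Con-3 without Con-3 replicate 2, tI-3 replicate 1 or tI-3 replicate 2 (adjusted p up to 0.086). Both Foxd2 calls were also lost after quantile normalization (adjusted p 0.0978 and 0.0803), where the difference from tI-3 became -0.23, and with the block for hybridization controls (adjusted p 0.169 and 0.0863), where it was -0.44. Its neighbour Foxe3, with no protein-coding gene between, was called in no comparison, at 5.30 to 5.86 over the arrays. Foxb1, near background, was lower in Ind-8 than in Con-3 by 0.34 (adjusted p 0.0214) and than in tI-3 by 0.38 (adjusted p 0.0191), in 3 of 3 Ind-8 arrays. The call with Con-3 was lost without Con-3 replicate 2 or 3 or Ind-8 replicate 2 or 3 (adjusted p up to 0.0774), and the call with tI-3 without Ind-8 replicate 2 or tI-3 replicate 2 (adjusted p up to 0.125). Under the block for hybridization controls both Foxb1 calls were lost as well (adjusted p 0.0774 and 0.515), and the difference from tI-3 became -0.22. After quantile normalization that difference was -0.18 (adjusted p 0.17). Foxb2, at 4.87 to 5.54, was called in no comparison, and neither were Foxd3 and Foxd4, both near background.

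Foxq1, Foxf2 and Foxc1, which act in epithelium, gut mesenchyme and the mesoderm of eye and vessels, are neighbours on 1 chromosome with no protein-coding gene between them. Foxq1 was 6.93, 6.62 and 6.33 in Ind-8, 6.59, 6.28 and 5.96 in Con-3, and 7.39 and 7.28 in tI-3. Both tI-3 arrays lay above all 6 others, and Ind-8 and Con-3 overlapped. Foxq1 was higher in tI-3 than in Con-3 by 1.06 (2.08-fold; 95% confidence interval 0.62 to 1.49; adjusted p 0.00331), the largest difference of the 37 forkheads in that comparison, and rank product did not call it. It was lower in Ind-8 than in tI-3 by 0.71 (1.63-fold; adjusted p 0.0222). That call was lost without Ind-8 replicate 2 or 3, without tI-3 replicate 1 or 2 (adjusted p up to 0.103) and under the block for hybridization controls (difference -1.18, adjusted p 0.0598, the high end of 0.00441 to 0.0598 over the other fits).

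Foxf2 was lower in Ind-8 than in tI-3 by 0.61 (1.53-fold; adjusted p 0.0322), with 7.28, 6.89 and 6.71 in Ind-8 below 7.54 and 7.59 in tI-3. The call was lost without Ind-8 replicate 2 or 3, without tI-3 replicate 1 or 2 (adjusted p up to 0.154) and with the hybridization-control block, where the difference was larger, at -1.01 (adjusted p 0.0952). Between tI-3 and Con-3 the Foxf2 difference was 0.44 (adjusted p 0.112). Foxc1, the remaining neighbour, was 8.58 to 9.07 over the arrays and was called in no comparison.

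Foxf1, Foxc2 and Foxl1, factors of mesenchyme of lung, vessels and gut, form another group of neighbours, with 1 protein-coding gene between Foxf1 and Foxc2 and 0 between Foxc2 and Foxl1. Foxc2 was 11.07, 10.59 and 10.24 in Ind-8, 10.52, 9.87 and 9.75 in Con-3, and 9.86 and 9.80 in tI-3. All Ind-8 arrays lay above both tI-3 arrays, while Ind-8 and Con-3 overlapped. Foxc2 was higher in Ind-8 than in tI-3 by 0.80 (1.74-fold; 95% confidence interval 0.24 to 1.36; adjusted p 0.0347). The call was lost without Ind-8 replicate 1 or 2, without either tI-3 array (adjusted p up to 0.161), after quantile normalization and with the hybridization-control block, where the difference was 0.36 and the adjusted p reached 0.688 from a low of 0.00154 over the other fits. The difference from Con-3 was 0.59 (adjusted p 0.0923).

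Foxl1, in contrast to its neighbour, was higher in tI-3 than in Con-3 by 0.53 (1.44-fold; adjusted p 0.0418), with 5.74 and 6.30 in tI-3 above 5.46, 5.43 and 5.58 in Con-3. This call was lost without Con-3 replicate 1, 2 or 3, Ind-8 replicate 2 or tI-3 replicate 2 (adjusted p up to 0.38), after quantile normalization and with the hybridization-control block. The Foxl1 difference was 0.25 without tI-3 replicate 2 and 0.81 without tI-3 replicate 1. The Foxl1 difference between Ind-8 and tI-3 was -0.38 (adjusted p 0.11). Foxf1, at 5.23 to 5.96 over the arrays, was called in no comparison.

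Foxh1, a partner of SMAD proteins in nodal signalling, was lower in Ind-8 than in tI-3 by 0.57 (1.49-fold; adjusted p 0.00835). It was 6.04, 5.77 and 6.08 in Ind-8, 6.10, 6.18 and 6.21 in Con-3, and 6.38 and 6.69 in tI-3. The 3 lines did not overlap, with tI-3 highest. Foxh1 was not called between Ind-8 and Con-3 (difference -0.20, adjusted p 0.255) or between tI-3 and Con-3 (difference 0.37, adjusted p 0.0577). The call between Ind-8 and tI-3 was lost without tI-3 replicate 2 (adjusted p 0.0964) and with the hybridization-control block. Its partners Smad2 and Smad3 were lower in Ind-8 than in tI-3 as well, by 0.59 (adjusted p 0.00147) and 0.67 (adjusted p 0.00107), each in 3 of 3 Ind-8 arrays. Smad4 was not called there (difference -0.22, adjusted p 0.152). With the hybridization-control block none of these SMAD genes was called between Ind-8 and tI-3.

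Foxn4, a factor of retina and spinal cord progenitors, was 5.86, 5.82 and 6.18 in Ind-8, 6.14, 6.01 and 6.30 in Con-3, and 6.56 and 6.57 in tI-3. Both tI-3 arrays lay above the 6 others, and Ind-8 and Con-3 overlapped. Foxn4 was lower in Ind-8 than in tI-3 by 0.61 (1.53-fold; adjusted p 0.00689) and higher in tI-3 than in Con-3 by 0.41 (1.33-fold; adjusted p 0.0398). The call with Ind-8 was lost without tI-3 replicate 2 (adjusted p 0.0511) and with the hybridization-control block, and the call with Con-3 without Con-3 replicate 1 or 2 or either tI-3 array (adjusted p up to 0.158), with the block and with a variance trend. With the block the Foxn4 differences were -0.39 (adjusted p 0.35) and 0.27 (adjusted p 0.348). Foxn2 and Foxn3, the latter a checkpoint repressor, were called in no comparison. Foxn2 spread widely within Con-3, at 9.11, 8.09 and 7.68, and Foxn3 was 6.61 to 7.03 over the arrays.

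Foxp1 and Foxp4, repressors that bind as dimers, had their lowest line means in tI-3, each called against 1 other line. Between Ind-8 and tI-3 Foxp1 was not called (difference 0.24, adjusted p 0.0877). Between tI-3 and Con-3 Foxp4 was not called (difference -0.51, adjusted p 0.0587). Foxp1 was 9.18, 8.99 and 9.16 in Ind-8, 9.38, 9.29 and 9.36 in Con-3, and 8.82 and 8.93 in tI-3. The lines did not overlap, with Con-3 highest, but Foxp1 was not called between Ind-8 and Con-3 (difference -0.23, adjusted p 0.0957). Foxp1 was lower in tI-3 than in Con-3 by 0.47 (1.39-fold; 95% confidence interval -0.70 to -0.25; adjusted p 0.00628), a call that was lost without tI-3 replicate 1 (adjusted p 0.0509). Foxp4 was higher in Ind-8 than in tI-3 by 0.61 (1.53-fold; adjusted p 0.0253), with 8.02, 7.37 and 7.82 in Ind-8 above 6.98 and 7.27 in tI-3. That call was lost without Ind-8 replicate 1 or 3 or either tI-3 array (adjusted p up to 0.157), after quantile normalization and with the hybridization-control block. Foxp1 has 3 promoters in GRCm38.p6, all on the minus strand of chromosome 6: promoter 1 at chr6:99028299-99028548, promoter 2 at chr6:99266516-99266765 and promoter 3 at chr6:99520994-99521243. They hold 1, 2 and 1 copies of TAAACA, in capitals and read as TGTTTA where the copy is on the opposite strand.

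Foxp1 promoter 1: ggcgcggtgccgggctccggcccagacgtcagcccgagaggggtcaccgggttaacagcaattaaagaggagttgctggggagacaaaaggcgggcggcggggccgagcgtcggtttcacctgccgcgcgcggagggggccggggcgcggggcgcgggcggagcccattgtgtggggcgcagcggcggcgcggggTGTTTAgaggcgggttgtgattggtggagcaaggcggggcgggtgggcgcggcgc

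Foxp1 promoter 2: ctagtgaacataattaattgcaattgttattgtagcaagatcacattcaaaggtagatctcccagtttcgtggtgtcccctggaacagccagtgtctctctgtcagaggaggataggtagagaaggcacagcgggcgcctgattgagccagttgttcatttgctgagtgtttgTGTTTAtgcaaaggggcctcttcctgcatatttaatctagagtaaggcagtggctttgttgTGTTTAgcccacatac

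Foxp1 promoter 3: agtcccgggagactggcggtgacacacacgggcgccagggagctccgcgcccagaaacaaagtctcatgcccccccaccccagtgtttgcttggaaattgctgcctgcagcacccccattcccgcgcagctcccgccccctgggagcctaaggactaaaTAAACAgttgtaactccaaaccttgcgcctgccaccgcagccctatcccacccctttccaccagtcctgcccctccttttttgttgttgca

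Partners of these repressors and of the FoxK factors in histone deacetylase complexes were read as a list, 11 found of 12 with Smad2 and Smad3 among them. 1 of the 11, Sin3b, was called between Ind-8 and Con-3, lower by 0.30 (adjusted p 0.0381; 9.09%, beside 21.9% of all probe sets), and without Con-3 replicate 2 or 3 or Ind-8 replicate 2 or 3 this count was 0. In Ind-8 against tI-3, 2 were higher and 3 lower in Ind-8 (45.5%, beside 31.1% of all probe sets), and with the hybridization-control block limma called 0. The 3 lower were Smad2, Smad3 and Gatad2b, a subunit of the NuRD complex (by 0.69; adjusted p 0.00268), and the 2 higher were the deacetylase gene Hdac2 (by 0.66; adjusted p 0.00327) and Mta1 of the same complex (by 0.36; adjusted p 0.0476). Between tI-3 and Con-3, 3 were higher and 2 lower in tI-3 (45.5%, beside 25.4%), and the 5 calls became 3 without tI-3 replicate 2. These 5 were the same genes, with Hdac2 and Mta1 lower in tI-3 by 0.88 and 0.54.

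Foxk1 and Foxk2, which repress autophagy and starvation genes, and Foxj3, a factor of muscle and spermatocytes, were each called in at least 1 comparison. Foxk1 was 6.47, 6.31 and 6.50 in Ind-8, 6.51, 6.60 and 6.63 in Con-3, and 6.03 and 6.18 in tI-3. Both tI-3 arrays were the lowest. Con-3 lay above Ind-8 without overlap but by a narrow gap, and Foxk1 was not called between them (difference -0.15, adjusted p 0.281). Foxk1 was lower in tI-3 than in Con-3 by 0.48 (1.39-fold; adjusted p 0.0072) and higher in Ind-8 than in tI-3 by 0.33 (1.25-fold; adjusted p 0.037). The call with Con-3 was lost without tI-3 replicate 1 (adjusted p 0.0611), and the call with Ind-8 without Con-3 replicate 2, Ind-8 replicate 1 or 3 or either tI-3 array (adjusted p up to 0.192) and under 4 of the 10 other fits.

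Foxk2 was lower in Ind-8 than in Con-3 by 0.37 (1.30-fold; adjusted p 0.0476), with 8.12, 7.75 and 8.10 in Ind-8 below 8.23, 8.50 and 8.35 in Con-3. The Foxk2 call was lost without Con-3 replicate 2 or 3, Ind-8 replicate 2 or 3 or either tI-3 array (adjusted p up to 0.164) and under 3 of the 10 other fits. Foxj3 was lower in Ind-8 than in Con-3 by 0.36 (1.29-fold; adjusted p 0.039), with 6.95, 7.04 and 7.09 in Ind-8 below 7.35, 7.50 and 7.33 in Con-3. Leaving out any of the 3 Ind-8 or 3 Con-3 arrays ended the Foxj3 call (adjusted p up to 0.134). So did the hybridization-control block, where the difference was about as large, at -0.40 (adjusted p 0.064). Foxj2, at 7.31 to 7.78 over the arrays, was called in no comparison.

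The 7 forkheads above background that were called in no comparison were Foxb2, Foxc1, Foxe3, Foxf1, Foxj2, Foxn2 and Foxn3. Near background, 13 of 16 were called in no comparison. Among them were the endoderm factors Foxa1, Foxa2 and Foxa3, Foxd3 and Foxd4, Foxi1 of the inner ear, Foxj1 of ciliated cells, Foxl2 of the ovary, Foxn1 of the thymus, Foxp2, Foxo3 and Foxo4. The remaining 3 were Foxb1, Foxd2 and Foxp3. Foxp3, the factor of regulatory T cells, was lower in Ind-8 than in tI-3 by 0.40 (adjusted p 0.0438), with 4.03, 3.70 and 3.85 below 4.16 and 4.35. The Foxp3 call was lost without Con-3 replicate 2 or 3, Ind-8 replicate 2 or 3 or either tI-3 array (adjusted p up to 0.258). It was also lost under 3 of the 8 other fits, the hybridization-control block among them (adjusted p up to 0.31), and after quantile normalization the Foxp3 difference was -0.22 (adjusted p 0.277).

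The olfactory receptor rows, which serve as a measure of background, drifted between the lines. The median of the 36 olfactory receptor rows was 3.82, 3.82 and 3.94 in Ind-8, 3.99, 3.98 and 4.04 in Con-3, and 4.14 and 4.15 in tI-3. The median of the 16 forkheads near background was 4.08, 4.04 and 4.19, then 4.13, 4.21 and 4.34, then 4.19 and 4.33, and here the lines overlapped. In Ind-8 against tI-3, 14 of these 16 forkheads and 32 of 36 olfactory rows had a difference below 0. In the same comparison 8 olfactory rows were called, all lower in Ind-8. These 8 calls became 4 without Ind-8 replicate 2, 0 with the hybridization-control block and 15 with the replicate block. After quantile normalization 1 was higher and 1 lower in Ind-8. After quantile normalization the median olfactory difference in that comparison went from -0.254 to -0.091. The 5th to 95th percentile range of the olfactory rows in that comparison was -0.589 to 0.112. The differences of the 3 called near-background forkheads lay within it, as did that of Foxh1 (-0.574), which stood above background. Foxf2 (-0.609) and Foxn4 (-0.611), also above background, lay past this range but not past the lowest olfactory difference, -0.643. The part of this drift in their calls was not tested. Foxb1, Foxd2 and Foxp3 were not called between Ind-8 and tI-3 after quantile normalization. Foxb1 was still called between Ind-8 and Con-3 after it (difference -0.27, adjusted p 0.0379).

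**Figure D4:**
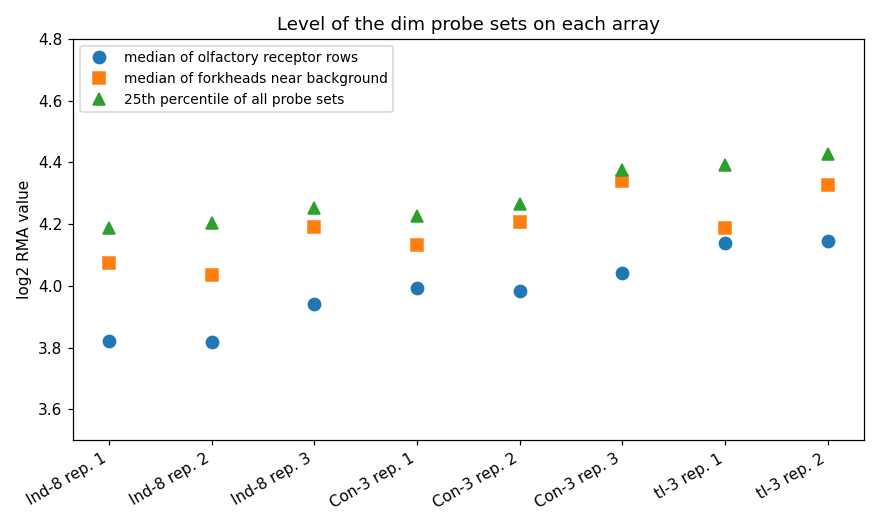
Median log2 signal on each of the 8 arrays for olfactory receptor rows and forkheads near background, and the 25th percentile of all probe sets, by line. The olfactory rows lie lowest in Ind-8 and highest in tI-3.

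Cell-type genes were read beside the forkheads because several forkheads mark tissues. Of 10 fibroblast markers 5 were higher and 1 lower in Ind-8 than in tI-3, and of 11 mural cell markers 3 were higher and 1 lower. The called shares were 60% and 36.4%, beside 31.1% of all probe sets. With the hybridization-control block 2 fibroblast and 2 mural markers were called, all higher in Ind-8. The largest fibroblast differences between Ind-8 and tI-3 were in Col3a1 (2.42), Pdgfra (1.51) and Col1a1 (1.49). These matrix and receptor genes were also lower in tI-3 than in Con-3. In that comparison 3 fibroblast markers were lower and 2 higher in tI-3. The 2 were Fn1 by 0.28 (adjusted p 0.0482) and Thy1, near background, by 0.37 (adjusted p 0.0275). Between Ind-8 and Con-3, where Foxs1 differed most, 2 of the 11 mural markers (18.2%, beside 21.9% of all probe sets) were called, both higher in Ind-8: Pdgfrb by 0.38 (adjusted p 0.00987) and Notch3 by 0.70 (adjusted p 0.000625), the latter near background. Tagln, a contractile gene, and Acta2 were higher in Ind-8 than in tI-3, by 3.01 (adjusted p 5.76e-06) and 0.862 (adjusted p 0.000304). Both were also lower in tI-3 than in Con-3 (differences -2.752, adjusted p 6.63e-06, and -0.887, adjusted p 0.000228). Neither was called between Ind-8 and Con-3 (differences 0.254 and -0.025), so they set tI-3 apart and did not follow Foxs1. Notch3 was higher in Ind-8 than in tI-3 by 0.547 (adjusted p 0.00393) and was not called between tI-3 and Con-3. Of the markers of other types, 4 of 5 endothelial, 4 of 5 epithelial and 2 of 4 blood genes were near background. In RNA of whole cultures a shift in the share of cells and a shift in RNA per cell cannot be told apart, and the part of either in the forkhead differences was not tested.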

How the data were processed

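The values are the authors' deposited RMA signals in log2, made with a probe grouping by RefSeq transcript, and were used as deposited. All 8 arrays were used. Of 22587 rows, 64 control probe sets were left out, and 18294 of the other 22523 had a gene name in the RefSeq table of GRCm38.p6. Differences were fitted by limma 3.58.1 in R 4.3.3 on 3 line means, with empirical Bayes variances and Benjamini-Hochberg adjustment over the 22523 probe sets. Rank product was written anew with 100 permutations, its false positive share (pfp) limited to 0.05. The rest was done in Python 3.11.15 with numpy 2.4.6, pandas 2.3.3 and matplotlib 3.10.9. Both tests were tested on simulated data, where rank product also called some rows that had been given no difference, more than limma did. The forkheads are named by whether they were called, and from each gene list the called members with the 3 largest rises and 3 largest falls in each comparison are named; some genes of the sets are not reported here. Each count of calls was read under 20 alternatives to the limma fit and the background limit under 2. Protein sequences of forkhead domains were not analysed here. Lists of FoxO targets, FoxO regulators and cofactors, forkhead partners and cell-type markers were written from general knowledge. Members and lists were chosen with earlier results of these data known. G418 in tI-3 was 1 µg/ml in the sample labels and 1 mg/ml in the methods text, and Con-3 is named there as a vector control line.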

Additional observations from a re-analysis of the deposited data

How the results depend on the processing

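The counts of called forkheads depended on the test and on single arrays. Between Ind-8 and Con-3 the 6 calls became 3 with the hybridization-control block, 1 when a log2 difference of at least 1 was asked for, 1 by rank product, and 3 to 7 with each array left out in turn. Between Ind-8 and tI-3 the 12 became 1 with that block, 1 with the log2 limit, 1 by rank product, and 2 to 13 with an array left out. Between tI-3 and Con-3 the 8 became 5 with that block, 1 with the log2 limit, 0 by rank product (4 at an unadjusted p under 0.05, where limma has 9 higher and 4 lower), and 4 to 9 with an array left out. The block puts Con-3 replicate 3 and both tI-3 arrays against the other 5. Between Ind-8 and Con-3 it therefore equals leaving out Con-3 replicate 3, and between Ind-8 and tI-3 it rests on the Con-3 arrays alone. Between tI-3 and Con-3 it sets tI-3 against Con-3 replicate 3 alone, the array that stood apart on 18S ribosomal RNA. With the replicate block the 3 counts were 7, 15 and 8. Between Ind-8 and Con-3 the 7 were 4 higher and 3 lower, and 5 of them were among the 6 calls, so the balance turned there. Arrays of the same replicate number did not resemble each other in each pair of lines (r from -0.225 to 0.381). The number was therefore not used to pair cultures. The 16 forkheads near background became 10 when the mean of the 8 arrays was held to its 25th percentile over all probe sets, where both the level read and the limit differ, and 5 with the olfactory median as the limit of the highest line mean. The Foxs1 difference between tI-3 and Con-3, 0.09 and not called, reversed to -0.002 after quantile normalization and to -0.116 without tI-3 replicate 1, in a range of -0.116 to 0.293 with an array left out. Alternatives for the gene lists were chosen after seeing the data. FoxO targets called between Ind-8 and Con-3 went from 17 to 9 with the hybridization-control block, 6 by rank product and 8 to 16 with an array left out. Between Ind-8 and tI-3 they went from 18 to 11 after quantile normalization, 4 with that block, 3 by rank product and 7 to 18 with an array left out, and between tI-3 and Con-3 from 11 to 5 by rank product. FoxO regulators and cofactors went from 6 to 2 by rank product and 3 to 6 with an array left out between Ind-8 and Con-3, from 6 to 10 (3 higher and 7 lower) after quantile normalization, 1 with the block and 1 by rank product between Ind-8 and tI-3, and from 10 to 1 by rank product between tI-3 and Con-3. Forkhead partners went from 1 to 0 with the block, 0 by rank product and 0 to 1 with an array left out between Ind-8 and Con-3, from 5 to 0 with the block and 0 by rank product between Ind-8 and tI-3, and from 5 to 2 with the block, 0 by rank product and 3 to 5 with an array left out between tI-3 and Con-3. The cause of these shifts was not tested.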
